A study of Mus musculus with 10 samples.

Results

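BML-260 was compared with its solvent DMSO in 8 of the 10 RNA sequencing libraries of the series, in a model that lets the level of each gene differ between 1 and 3 days of culture and asks for the BML-260 effect common to both times. The members are every library labelled BML-260 or DMSO, 4 of each, and all 15120 genes that passed a filter on low counts. The cells are brown adipocytes of C57BL/6 mice. The groups, of 2 libraries each, are DMSO for 1 day, DMSO for 3 days, BML-260 for 1 day and BML-260 for 3 days, and the remaining 2 libraries, labelled ISO, enter only an alternative fit. The labels give no BML-260 dose, age or sex, and do not say whether the cells were primary or of a line, or whether the 2 libraries of a group came from separate cultures. The p-values therefore rest on a spread between libraries that may be technical only. In the model of a common effect this spread also takes in any difference between the effects at 1 and 3 days.

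Brown adipocytes burn fatty acids in mitochondria and release the energy as heat through UCP1, a protein of the inner membrane that lets protons bypass ATP synthase. In the body this is switched on by noradrenaline through the beta-3 adrenergic receptor and cyclic AMP. BML-260 is a rhodanine compound sold as an inhibitor of DUSP22, a dual-specificity phosphatase also called JSP-1, which acts on signalling in the JNK kinase pathway.

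The 8 libraries held 17094354 to 20039083 counts assigned to genes, and r across genes between the 2 libraries of a group was 0.994 to 0.995 on the log2 scale of CPM. CPM is the count of a gene scaled to a fixed library total. The first principal component held 44.7% of the variance and separated the times. The next, with 23.7%, separated the treatments, with scores of -19.5 to -11.6 for BML-260 and of 4.50 to 26.1 for DMSO. Neither held time or treatment alone. On the first, BML-260 at 3 days lay at 34.1 and 35.5 and DMSO at 3 days at 8.1 and 7.6. On the second, DMSO lay at 4.5 and 6.8 at 1 day and at 24.3 and 26.1 at 3 days. All 9 brown adipocyte markers were measured, and their summed level was 853 to 912 CPM with BML-260 and 888 to 916 CPM with DMSO. The sum includes Ucp1, Elovl3 and Cidea, which rose, and Prdm16, Ebf2 and Kcnk3, which fell, by the test given below. Endothelial markers summed to at most 1.52 CPM, macrophage markers to at most 7.28 CPM with Adgre1, Ptprc and Mrc1 not listed, muscle markers to at most 2.67 CPM and Schwann cell markers to at most 10.8 CPM in any library.

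BML-260 changed the level of many genes by a small amount. Of the 15120 genes 4506, or 29.8%, passed edgeR's quasi-likelihood test at a Benjamini-Hochberg adjusted p under 0.05, 2478 of them (16.4%) higher and 2028 (13.4%) lower with BML-260. A gene said below to have risen, fallen or changed passed this test. The balance turned to 1814 higher and 2546 lower with upper-quartile scaling of the libraries. Only 184 of the changed genes, 1.22% of those tested, changed by 1 or more on the log2 scale, and 128 of these 184 fell. The change was under 0.5 for 3682 of the 4506.

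Over all 15120 tested genes the effects at 1 and at 3 days had the same sign for 10245, or 67.8%. Of the 4506 changed genes 4482 had effects of the same sign, which is largely fixed by choosing them on a common effect, and for 3872 the BML-260 and DMSO libraries did not overlap at either time. Over all tested genes, with any p, 5030 (33.3%) had no overlap at either time in 1 direction, and 2197 (14.5%) had none when the 4 BML-260 libraries were set against the 4 DMSO libraries. When each time was tested alone, 2837 genes (18.8%) changed at 1 day and 5620 (37.2%) at 3 days, and 1857 changed at both in the same direction, which is 65.5% of the 1-day and 33.0% of the 3-day genes. All 1857 are among the genes of the additive model, and of its other genes 451 changed at 1 day only, 1950 at 3 days only and 248 at neither time. Without DMSO 1 day replicate 2 the count at 1 day was 1430. The effect was the larger at 3 days for 3213 of the 4506 genes, with a median absolute log2 fold change of 0.21 at 1 day and 0.32 at 3 days, against 0.14 and 0.19 over all tested genes. Across genes the effects at 1 and 3 days, which share no library, had a Pearson correlation of 0.43 and a Spearman rank correlation of 0.44, given as a description over 15120 genes that are not independent.

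**Figure D1:**
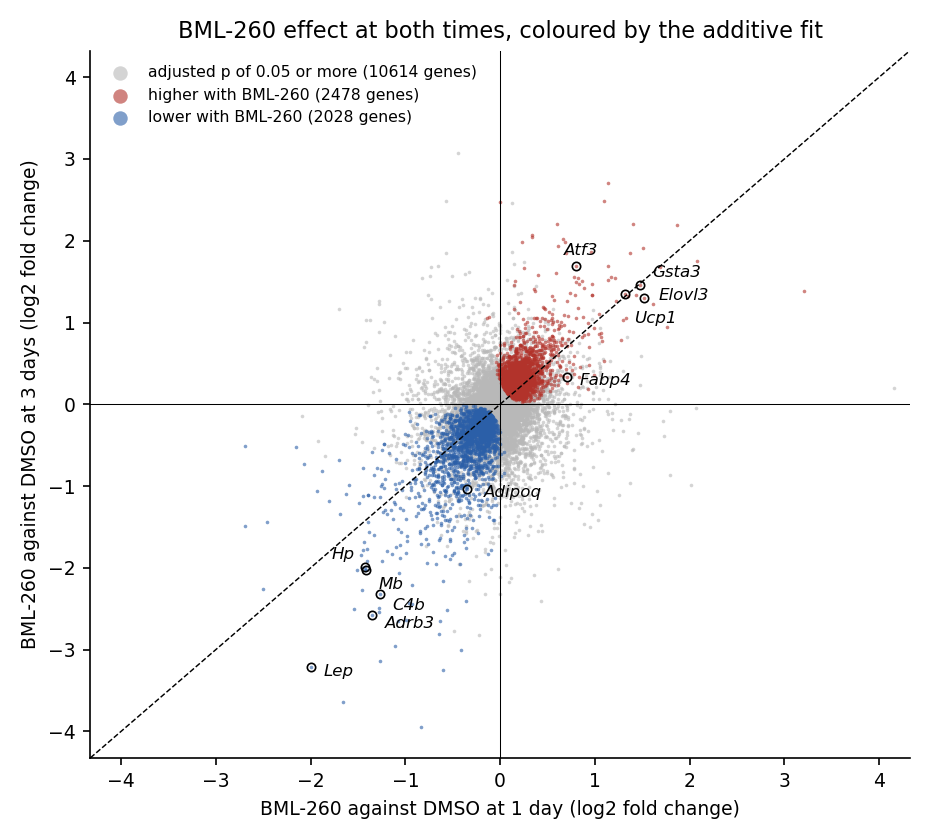
Log2 fold change of BML-260 against DMSO at 1 day (horizontal) and at 3 days (vertical) for each of 15120 genes, from a fit of 1 mean per group, with the dashed line marking equal effects. Red and blue points are the 2478 genes higher and 2028 genes lower in the additive fit, and they lie mostly in the quadrants of equal sign, as choosing them on a common effect largely fixes, with most of the labelled lower genes below the dashed line.

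The thermogenic genes moved apart from each other. Ucp1 stood at 6.06 and 5.11 CPM in the DMSO libraries of 1 day and at 12.2 and 13.1 CPM in those of 3 days. With BML-260 it stood at 15.4 and 12.6 CPM at 1 day and at 33.3 and 31.1 CPM at 3 days. At each time the BML-260 libraries lay well above the DMSO libraries, but BML-260 at 1 day overlapped DMSO at 3 days, so that only a model with time separates the treatments. In the additive fit Ucp1 was 2.53-fold higher with BML-260, at 1.34 on the log2 scale (SE 0.08, edgeR adjusted p = 5.5e-08), with 1.32 at 1 day and 1.35 at 3 days. In these bulk libraries fewer cells of a type and less RNA per cell cannot be told apart, here and in every result that follows.

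Elovl3, a fatty acid elongase of brown fat, stood at 11.8 and 9.64 CPM with DMSO and 33.2 and 28.1 CPM with BML-260 at 1 day, and at 10.2 and 8.57 CPM and 23.2 and 23.3 CPM at 3 days. All 4 BML-260 libraries were above all 4 DMSO libraries (log2 fold change 1.41, SE 0.09, edgeR adjusted p = 5.5e-08). Mb, the oxygen store myoglobin, went the other way, from 189 and 197 CPM with DMSO to 67.6 and 76.7 CPM with BML-260 at 1 day and from 284 and 297 CPM to 68.8 and 73.96 CPM at 3 days. Its level with BML-260 was nearly the same at both times while that with DMSO was higher at 3 days (log2 fold change -1.73, SE 0.09, edgeR adjusted p = 1.9e-08). Cidea, which helps lipid droplets fuse, was at 0.27 (SE 0.05), with 0.27 at 1 day and 0.27 at 3 days, and the potassium channel Kcnk3 was at -0.56 (SE 0.06).

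Of 13 tested brown fat effector genes 5 rose, 3 fell and 5 did not pass, with a median log2 fold change of 0.09 against 0.01 over all tested genes. The highest of them, Fgf21, a hormone of liver and brown fat, was at 1.65 (SE 0.21) with at most 5.11 CPM in any library, and it is named here for its value. Dio2, the deiodinase that makes active thyroid hormone in brown fat, reached no more than 2 counts per library and could not be tested. The transcriptional regulators of brown fat did not rise: 0 of 17 rose, 6 fell and 11 did not pass, with a median of -0.08. The changed share was 35.3%, against 29.8% over all tested genes. Among those that fell were the coactivator Ppargc1b at -0.40 (SE 0.05), the brown fat determinants Ebf2 at -0.34 (SE 0.05) and Prdm16 at -0.55 (SE 0.09), and the nuclear receptor Nr4a1 at -0.75 (SE 0.11). Ppargc1a, the main coactivator of mitochondrial genes, had 49.7 and 51.1 CPM with DMSO and 51.6 and 50.2 CPM with BML-260 at 1 day and 48.4 and 47.9 CPM and 41.8 and 39.2 CPM at 3 days. Its groups overlapped at 1 day and were apart, with BML-260 lower, at 3 days, and over both times it was at -0.12 (SE 0.06, edgeR adjusted p = 0.13).

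**Figure D2:**
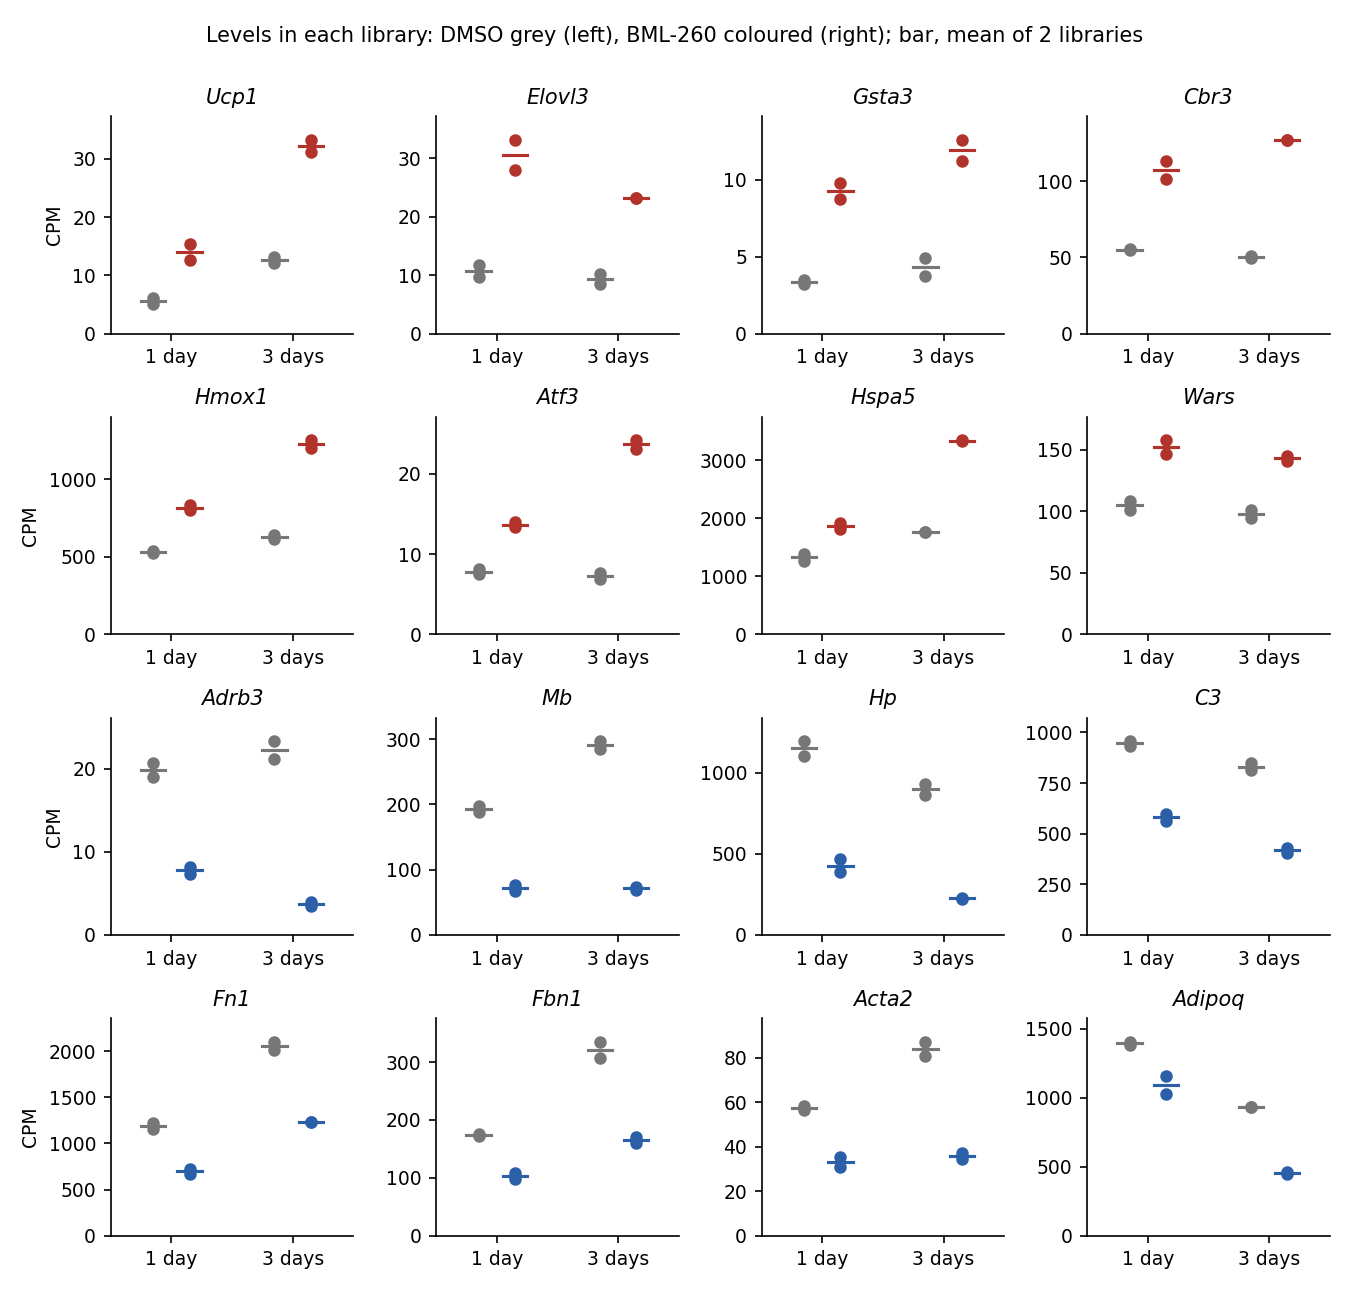
CPM of 16 genes in each of the 8 libraries (points) with the mean of each group of 2 (bars), DMSO in grey and BML-260 in red for genes that rose and blue for genes that fell. The genes in the first 2 rows rose and those in the last 2 fell, and in every panel the BML-260 and DMSO points of the same time are apart. This is largely fixed by the choice of genes, most of which were taken for no overlap at either time or for a small p.

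Gene lists are described in the following by how many tested members passed in each direction. Over all tested genes 16.4% rose and 13.4% fell, 29.8% in either direction. A list whose shares are near these is not set apart from all genes by its counts. In 21 lists that count was 0 in 1 direction, and over these lists 4 members (Nr1d1, Tagln2, Mrpl49 and Mrps7, named for this) reached an unadjusted p under 0.05 there in edgeR, and 0 passed by DESeq2's Wald test.

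The antioxidant genes controlled by NRF2, a transcription factor released when electrophiles or oxidants modify its partner KEAP1, rose as a group. Of 32 tested members 26 rose, 0 fell and 6 did not pass, with a median log2 fold change of 0.39. Cbr3, a carbonyl reductase, stood at 54.7 and 55.3 CPM with DMSO and 102 and 113 CPM with BML-260 at 1 day, and at 49.7 and 50.8 CPM and 127 and 127 CPM at 3 days. Every BML-260 library was far above every DMSO library, and the additive effect was 1.15 on the log2 scale (SE 0.06, edgeR adjusted p = 2.2e-08). Hmox1, the heme oxygenase, stood at 525 and 537 CPM and 801 and 836 CPM at 1 day and at 617 and 641 CPM and 1205 and 1253 CPM at 3 days, a log2 fold change of 0.80 (SE 0.06). Srxn1, sulfiredoxin, rose by 0.65 (SE 0.05) and Gclc, the catalytic subunit of the enzyme that starts glutathione synthesis, by 0.61 (SE 0.04).

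Enzymes that attach glutathione to other molecules were mixed, with 7 of 21 higher, 2 lower and 12 not passing. Gsta3, the largest rise of any gene named by rule, stood at 3.49 and 3.23 CPM with DMSO and 8.79 and 9.83 CPM with BML-260 at 1 day, and at 4.91 and 3.75 CPM and 12.6 and 11.2 CPM at 3 days. All BML-260 libraries were above all DMSO libraries, with an additive effect of 1.46 (SE 0.11, edgeR adjusted p = 3.2e-07) that was 1.47 at 1 day and 1.46 at 3 days. Gsto1 was at 0.64 (SE 0.04), Gsta4 at 0.56 (SE 0.06) and Gstp1 at 0.37 (SE 0.05). Genes of the GST family are similar in sequence, and no source used here says how reads matching several copies were counted.

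The antioxidant response element is the DNA motif that NRF2 binds, and its core is written TGACNNNGC. Within the 250 bases before the transcription start (RefSeq, GRCm38.p6, either strand) it was present in 11.5% of 27025 genes with a promoter window, in 14.1% of the tested genes with one, and in 7 of 27 NRF2 list genes with one. All 7 rose, but so did 21 of the 27 with or without the motif. Of the genes with a window that rose 15.1% held it, of those that fell 12.3% and of those not called 14.2%. The 2 list genes of smallest p that hold it are shown with the match in capitals, Gsta3 at chr1:21240335-21240584 on the plus strand and Abcc4, an exporter of drugs and cyclic nucleotides, at chr14:118706220-118706469 on the minus strand, where the match lies on the opposite strand. Gsta3 has the match 121 to 113 bases before its start and Abcc4, which rose by 0.47 (SE 0.04), 25 to 17 bases before.
Gsta3: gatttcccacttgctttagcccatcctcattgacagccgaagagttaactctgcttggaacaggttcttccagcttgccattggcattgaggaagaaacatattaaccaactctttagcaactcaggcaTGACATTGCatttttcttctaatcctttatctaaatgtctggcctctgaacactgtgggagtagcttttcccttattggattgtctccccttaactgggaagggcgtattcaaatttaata
Abcc4: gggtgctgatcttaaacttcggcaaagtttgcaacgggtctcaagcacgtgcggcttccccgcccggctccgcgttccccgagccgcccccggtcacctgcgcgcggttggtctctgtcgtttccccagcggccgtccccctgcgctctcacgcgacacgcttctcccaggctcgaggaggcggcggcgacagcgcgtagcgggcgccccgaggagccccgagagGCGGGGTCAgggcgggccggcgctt

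Genes of the integrated stress response, in which phosphorylation of the initiation factor eIF2 favours translation of ATF4 and ATF4 then raises genes of amino acid supply, rose together. Of 28 tested members 21 rose, 0 fell and 7 did not pass (median 0.37). Atf3, a transcription factor of stressed cells, stood at 8.1 and 7.54 CPM with DMSO and 13.97 and 13.3 CPM with BML-260 at 1 day, and at 7.69 and 6.93 CPM and 24.2 and 23.1 CPM at 3 days (log2 fold change 1.28, SE 0.13, edgeR adjusted p = 4.9e-06). The DMSO libraries were at a like level at both times and the BML-260 libraries were higher at 3 days. Ppp1r15a, the phosphatase subunit that reverses eIF2 phosphorylation, rose by 0.62 (SE 0.04), Ddit3, the stress factor CHOP, by 0.58 (SE 0.04), Trib3, a pseudokinase induced by CHOP and ATF4, by 0.44 (SE 0.04) and Asns, asparagine synthetase, by 0.46 (SE 0.05).

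The enzymes that load amino acids onto transfer RNA, many of which are ATF4 targets, moved in the same direction. Of 20 cytosolic synthetases 18 rose, 0 fell and 2 did not pass, a median of 0.27. Wars, for tryptophan, stood at 109 and 101 CPM with DMSO and 158 and 146 CPM with BML-260 at 1 day, and at 101 and 94.8 CPM and 145 and 141 CPM at 3 days. The BML-260 libraries were all above the DMSO libraries, and the log2 fold changes of 0.53 at 1 day and 0.55 at 3 days were nearly equal (0.54 over both, SE 0.04, edgeR adjusted p = 4.6e-07). Nars was at 0.36, Iars at 0.41 and Eprs at 0.31 (SE 0.04, 0.05 and 0.04).

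ATF4 binds composite C/EBP-ATF elements, searched for as TGATGNAA on either strand. This was found before the start of 3.91% of all 27025 genes with a window, 2.27% of the tested genes with one, 8 of 26 genes of the ATF4 list and 3 of 12 synthetase genes. Over all changed genes with a window the share was 2.44% of those that rose and 2.53% of those that fell. The list genes of smallest p that hold it are Asns at chr6:7693210-7693459 and Atf3 at chr1:191183334-191183583, both on the minus strand of GRCm38.p6. The match in capitals lies 23 to 16 bases before the start of Asns and, read on the opposite strand, 110 to 103 bases before that of Atf3.
Asns: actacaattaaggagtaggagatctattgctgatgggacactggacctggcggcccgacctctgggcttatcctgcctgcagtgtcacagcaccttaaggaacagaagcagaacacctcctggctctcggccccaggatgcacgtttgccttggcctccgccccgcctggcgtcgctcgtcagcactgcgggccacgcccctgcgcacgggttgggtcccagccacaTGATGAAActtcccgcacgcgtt
Atf3: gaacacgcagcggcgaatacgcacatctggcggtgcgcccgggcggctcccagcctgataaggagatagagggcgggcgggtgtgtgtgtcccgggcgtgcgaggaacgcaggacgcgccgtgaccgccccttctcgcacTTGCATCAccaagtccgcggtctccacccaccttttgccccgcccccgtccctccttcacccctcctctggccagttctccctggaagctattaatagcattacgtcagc

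Chaperones of the endoplasmic reticulum (ER), where secreted proteins fold, rose in 16 of 23 cases and fell in 0 (median 0.18). Hspa5, the main ER chaperone BiP, stood at 1389 and 1270.2 CPM with DMSO and 1922 and 1813 CPM with BML-260 at 1 day, and at 1764 and 1766 CPM and 3325 and 3341 CPM at 3 days. The rise was clear of the spread at each time and larger at 3 days (log2 fold change 0.70 over both times, SE 0.07, edgeR adjusted p = 2.1e-06). The oxidase Ero1l, which forms disulfide bonds, rose by 0.62 (SE 0.06), the stress sensor Atf6 by 0.31 (SE 0.04) and the chaperone Hsp90b1 by 0.26 (SE 0.04). With upper-quartile scaling 12 of the 23 rose, and when each time was tested alone 6 changed at 1 day and 18 at 3 days.

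The ER stress element, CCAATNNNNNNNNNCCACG, is bound by NF-Y and ATF6. It was present in the 250 bases before the start of 0.13% of 27025 genes, that is 35 genes, and of 8 of the 18 ER list genes with a window. Of these 8 genes 6 rose, and of all 18, with or without the motif, 12 rose. Among genes with a window it was held by 7 of 1765 that rose (0.397%), 1 of 1421 that fell (0.0704%) and 6 of 6668 not called (0.09%). Of these 7, 6 are the ER list genes just counted, so the shares are not separate from that count. The list genes of smallest p that hold it are Hspa5, on the plus strand at chr2:34771840-34772089, with a match 65 to 47 bases before the start, and Hsp90b1, on the minus strand at chr10:86705445-86705694, with a match on each strand, 212 to 194 and 107 to 89 bases before it.
Hspa5: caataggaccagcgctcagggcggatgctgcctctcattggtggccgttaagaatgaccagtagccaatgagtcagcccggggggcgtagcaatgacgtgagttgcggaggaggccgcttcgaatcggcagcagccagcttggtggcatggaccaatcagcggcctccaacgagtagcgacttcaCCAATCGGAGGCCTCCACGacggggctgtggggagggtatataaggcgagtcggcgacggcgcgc
Hsp90b1: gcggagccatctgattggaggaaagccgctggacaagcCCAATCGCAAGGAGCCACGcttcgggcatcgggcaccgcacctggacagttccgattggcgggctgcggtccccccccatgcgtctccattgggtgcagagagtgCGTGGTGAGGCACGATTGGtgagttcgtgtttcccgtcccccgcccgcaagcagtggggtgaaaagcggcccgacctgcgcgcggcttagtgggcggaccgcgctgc

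The proteasome, which degrades ubiquitin-tagged proteins, had 27 of 31 subunit genes higher and 0 lower, by a median of 0.21. The catalytic subunit Psmb5 stood at 109 and 111 CPM with DMSO and 143 and 146 CPM with BML-260 at 1 day, and at 92.1 and 92.5 CPM and 128 and 135 CPM at 3 days. BML-260 libraries were above all DMSO libraries (log2 fold change 0.45, SE 0.04, edgeR adjusted p = 1.4e-06). Psmc2, an ATPase of the regulatory particle, was at 0.35 (SE 0.05) and the assembly chaperone Psmg2 at 0.51 (SE 0.06). Heat shock genes were split, with 9 of 19 higher and 2 lower. Those that rose included the mitochondrial chaperones Hspe1 at 0.41 (SE 0.04), Hspd1 at 0.37 (SE 0.05) and Hspa9 at 0.35 (SE 0.04), and the small heat shock protein Hspb8 at 0.51 (SE 0.05). Exons of Hspd1 and Hspe1 overlap each other, and no source used here says whether the libraries keep strand.

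Part of the genes of mitochondrial energy production rose, by small amounts. Of 36 complex I subunits 25 rose, 0 fell and 11 did not pass (median 0.16), of 39 subunits of complexes II to V 23 rose, 0 fell and 16 did not pass (median 0.13), and of 18 citric acid cycle genes 12 rose, 0 fell and 6 did not pass (median 0.18). Cycs, cytochrome c, stood at 103 and 105 CPM with DMSO and 128 and 137 CPM with BML-260 at 1 day, and at 63.4 and 61.9 CPM and 94.99 and 94.99 CPM at 3 days. It was lower at 3 days than at 1 day in both treatments and higher with BML-260 at each time (log2 fold change 0.47, SE 0.05, edgeR adjusted p = 7e-06). Ndufs8 of complex I was at 0.31 (SE 0.04), Sdhb of complex II at 0.25 (SE 0.04) and Uqcrc2 of complex III at 0.26 (SE 0.04). With upper-quartile scaling 14 of the 39 genes of complexes II to V and 9 of the 18 citric acid cycle genes rose. Of 73 genes of mitochondrial ribosomal proteins 37 rose and 0 fell (median 0.14), but with upper-quartile scaling 28 rose and 3 fell. Of 60 genes of cytosolic ribosomal proteins 21 rose (median 0.11), or 11 with upper-quartile scaling.

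Of 24 glycolysis and pyruvate genes 16 rose and 0 fell (median 0.25), or 1 fell with upper-quartile scaling. Pdhb, a subunit of pyruvate dehydrogenase, stood at 1101 and 1031 CPM with DMSO and 1422 and 1422 CPM with BML-260 at 1 day, and at 802 and 781 CPM and 1187 and 1227 CPM at 3 days, so that every BML-260 library was above every DMSO library (log2 fold change 0.51, SE 0.05, edgeR adjusted p = 1.2e-06). The glycolytic isomerase Gpi1 rose by 0.51 (SE 0.06) and the glucose transporter Slc2a1 by 0.44 (SE 0.07). Of 21 genes of mitochondrial fatty acid oxidation 11 rose, 0 fell and 10 did not pass, with Hadha of the trifunctional protein at 0.41 (SE 0.04) and the thiolase Acaa2 at 0.25 (SE 0.04). When each time was tested alone, 16 of the 21 changed at 1 day and 10 at 3 days, with medians of 0.21 and 0.08. In peroxisomes, which shorten very long and branched fatty acids, 9 of 27 genes rose and 1 fell, or 2 with upper-quartile scaling. This is a changed share of 37.0%, against 29.8% over all tested genes. Acox2, a peroxisomal oxidase, stood at 18.8 and 17.7 CPM with DMSO and 33.9 and 33.7 CPM with BML-260 at 1 day, and at 20.6 and 19.7 CPM and 56.1 and 51.9 CPM at 3 days (log2 fold change 1.18, SE 0.09), whereas the fatty acid transporter Abcd2 was at -0.89 (SE 0.12).

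Lipid droplet and lipid synthesis genes moved in both directions. The droplet coat protein Plin2 stood at 446 and 438 CPM with DMSO and 596 and 613 CPM with BML-260 at 1 day, and at 539 and 550.5 CPM and 783 and 824 CPM at 3 days (log2 fold change 0.51, SE 0.04, edgeR adjusted p = 3.5e-07). The related Plin4 fell, from 879 and 935 CPM to 662 and 735 CPM at 1 day and from 679 and 721 CPM to 437 and 384 CPM at 3 days (log2 fold change -0.57, SE 0.07). Plin2 and Plin4 thus lay on opposite sides at both times. Among the 16 genes of the list 6 rose and 4 fell, and the fatty acid binding proteins Fabp4 and Fabp5 rose by 0.52 (SE 0.06) and 0.31 (SE 0.04). Of 19 lipogenesis genes 6 rose and 9 fell. The NADPH source Me1 rose by 0.40 (SE 0.05), while Fasn, fatty acid synthase, was at -0.25 (SE 0.05) and Gpam, which starts triglyceride synthesis, at -0.31 (SE 0.04). Cholesterol synthesis genes rose in 15 of 23 cases and fell in 1 (median 0.19), with the squalene epoxidase Sqle at 0.77 (SE 0.09) and the lanosterol synthase Lss at 0.62 (SE 0.07).

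Several genes by which adipocytes receive and send signals fell. Adrb3, the beta-3 adrenergic receptor, stood at 18.99 and 20.7 CPM with DMSO and 7.37 and 8.19 CPM with BML-260 at 1 day, and at 21.2 and 23.3 CPM and 3.45 and 3.98 CPM at 3 days. All BML-260 libraries were below all DMSO libraries, and those of BML-260 were lower at 3 days than at 1 day, with an additive effect of -1.90 on the log2 scale (SE 0.17, edgeR adjusted p = 1.2e-06) over both times, the largest fall of the genes named by rule above the CPM limit. In the 15 lipolysis genes 9 fell and 1 rose (0 with upper-quartile scaling), among the lower ones Hcar1, the lactate receptor, at -0.66 (SE 0.09) and Mgll, monoglyceride lipase, at -0.41 (SE 0.06). Of 29 genes of beta-adrenergic and cyclic AMP signalling 9 fell, 2 rose (0 with upper-quartile scaling) and 18 did not pass, with a median of -0.04. In all 37.9% changed, against 29.8% over all tested genes. Those that fell include the small GTPase Rasd1 at -1.34 (SE 0.10) and Rgs2, which damps G protein signals, at -0.78 (SE 0.13).

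Of 17 genes of secreted adipocyte proteins 3 rose and 10 fell, with a median of -0.27, and with upper-quartile scaling 1 rose and 12 fell. Hp, haptoglobin, stood at 1104 and 1197 CPM with DMSO and 386 and 467 CPM with BML-260 at 1 day, and at 865 and 930.2 CPM and 221 and 230.1 CPM at 3 days (log2 fold change -1.71, SE 0.09, edgeR adjusted p = 1.9e-08). Adiponectin, Adipoq, stood at 1379 and 1405 CPM and 1029 and 1154 CPM at 1 day and at 933 and 930.3 CPM and 465 and 445 CPM at 3 days (log2 fold change -0.69, SE 0.10). Adipoq was lower at 3 days than at 1 day in both treatments, and BML-260 at 1 day lay above DMSO at 3 days. Leptin, Lep, was at -2.56 (SE 0.25) with at most 6.72 CPM in any library, and adipsin, Cfd, at -0.72 (SE 0.08). Of 14 adipogenic transcription factors 9 fell and 0 rose (median -0.21), with Cebpa at -0.70 (SE 0.08) and Pparg, the master regulator of fat cells, at -0.29 (SE 0.05). The summed level of the 8 adipocyte markers, 8788 to 15880 CPM with BML-260 and 8501 to 11870 CPM with DMSO, overlapped between the treatments and includes Fabp4, which rose.

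The extracellular matrix, the protein scaffold outside cells, was lower in most of the genes measured. Of 34 matrix glycoproteins and cross-linking enzymes 27 fell and 0 rose (median -0.38), and of 19 collagens 12 fell and 0 rose (median -0.27). Fn1, fibronectin, stood at 1158 and 1224 CPM with DMSO and 728 and 672 CPM with BML-260 at 1 day, and at 2017 and 2104 CPM and 1235 and 1232 CPM at 3 days. It was higher at 3 days than at 1 day in both treatments, and BML-260 at 3 days was near DMSO at 1 day (log2 fold change -0.75, SE 0.04, edgeR adjusted p = 1.9e-08, with -0.77 at 1 day and -0.74 at 3 days). Fbn1, fibrillin, was at -0.86 (SE 0.05), the glycoprotein Tnc at -0.83 (SE 0.06), the cross-linking enzyme Lox at -0.47 (SE 0.04) and the collagen chain Col1a2 at -0.43 (SE 0.04).

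Of 11 preadipocyte and fibroblast markers 8 fell and 0 rose, with a median of -0.51 and 0 members whose effect differed between the times by edgeR's test (3 at an unadjusted p under 0.05). Gsn, the actin-severing protein gelsolin, stood at 302 and 336 CPM with DMSO and 208 and 220.1 CPM with BML-260 at 1 day, and at 267 and 272 CPM and 204 and 190.3 CPM at 3 days, with all BML-260 libraries below all DMSO libraries (log2 fold change -0.51, SE 0.05). Sfrp2, a secreted modulator of Wnt signals, was at -1.06 (SE 0.09, edgeR adjusted p = 1.2e-06). Of 20 smooth muscle actin genes and targets of the factor SRF, 14 fell and 0 rose (median -0.35). Acta2, smooth muscle actin, stood at 56.3 and 58.5 CPM and 30.7 and 35.4 CPM at 1 day and at 80.6 and 87.2 CPM and 37.2 and 34.5 CPM at 3 days, with all BML-260 libraries below all DMSO libraries (log2 fold change -1.02, SE 0.08). The summed level of the fibroblast markers of the cell type lists was 195 to 318 CPM with BML-260 and 300 to 565 CPM with DMSO, with Dpp4 not listed, and that of smooth muscle and pericyte markers was 309 to 341 CPM and 444 to 490 CPM. Their part in the fall of the matrix genes was not tested.

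Many inflammatory and acute phase genes fell. Of 19 genes of the STAT3 and acute phase list 12 fell and 0 rose (median -0.36), with Orm1, an acute phase protein, at -0.85 (SE 0.08) and Osmr, the oncostatin M receptor, at -0.43 (SE 0.07). When each time was tested alone, 8 of the 19 changed at 1 day and 15 at 3 days, with medians of -0.19 and -0.54. Of 11 complement genes 6 fell and 0 rose (median -0.60). C3, the central complement component, stood at 935 and 958 CPM with DMSO and 564 and 599.6 CPM with BML-260 at 1 day, and at 847 and 813 CPM and 429 and 406 CPM at 3 days, with the treatments apart at both times (log2 fold change -0.85, SE 0.05, edgeR adjusted p = 5.9e-08). C4b was at -1.78 (SE 0.16).

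Of 17 chemokine and NF-kB genes 9 fell and 1 rose, Relb, an NF-kB subunit at 0.40 (SE 0.06). Ccl2, which attracts monocytes, stood at 25.3 and 29.98 CPM with DMSO and 13.6 and 14.2 CPM with BML-260 at 1 day, and at 22.8 and 22.3 CPM and 6.56 and 6.18 CPM at 3 days (log2 fold change -1.35, SE 0.13, edgeR adjusted p = 1.6e-06). Of 28 interferon-stimulated genes 14 fell, 0 rose and 14 did not pass (median -0.28). When each time was tested alone, 4 of the 28 changed at 1 day and 18 at 3 days, with medians of -0.18 and -0.39, and 8 had no overlap between treatments at either time. Among those that fell were the immunoproteasome subunits Psmb9 at -0.52 (SE 0.09) and Psmb8 at -0.35 (SE 0.08), opposite to the constitutive Psmb5. The macrophage marker Cd68 rose by 0.59 (SE 0.14). The macrophage markers summed to 2.85 to 4.25 CPM with DMSO and 3.89 to 7.28 CPM with BML-260, with Csf1r and Itgam under 1 CPM in every library.

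**Figure D3:**
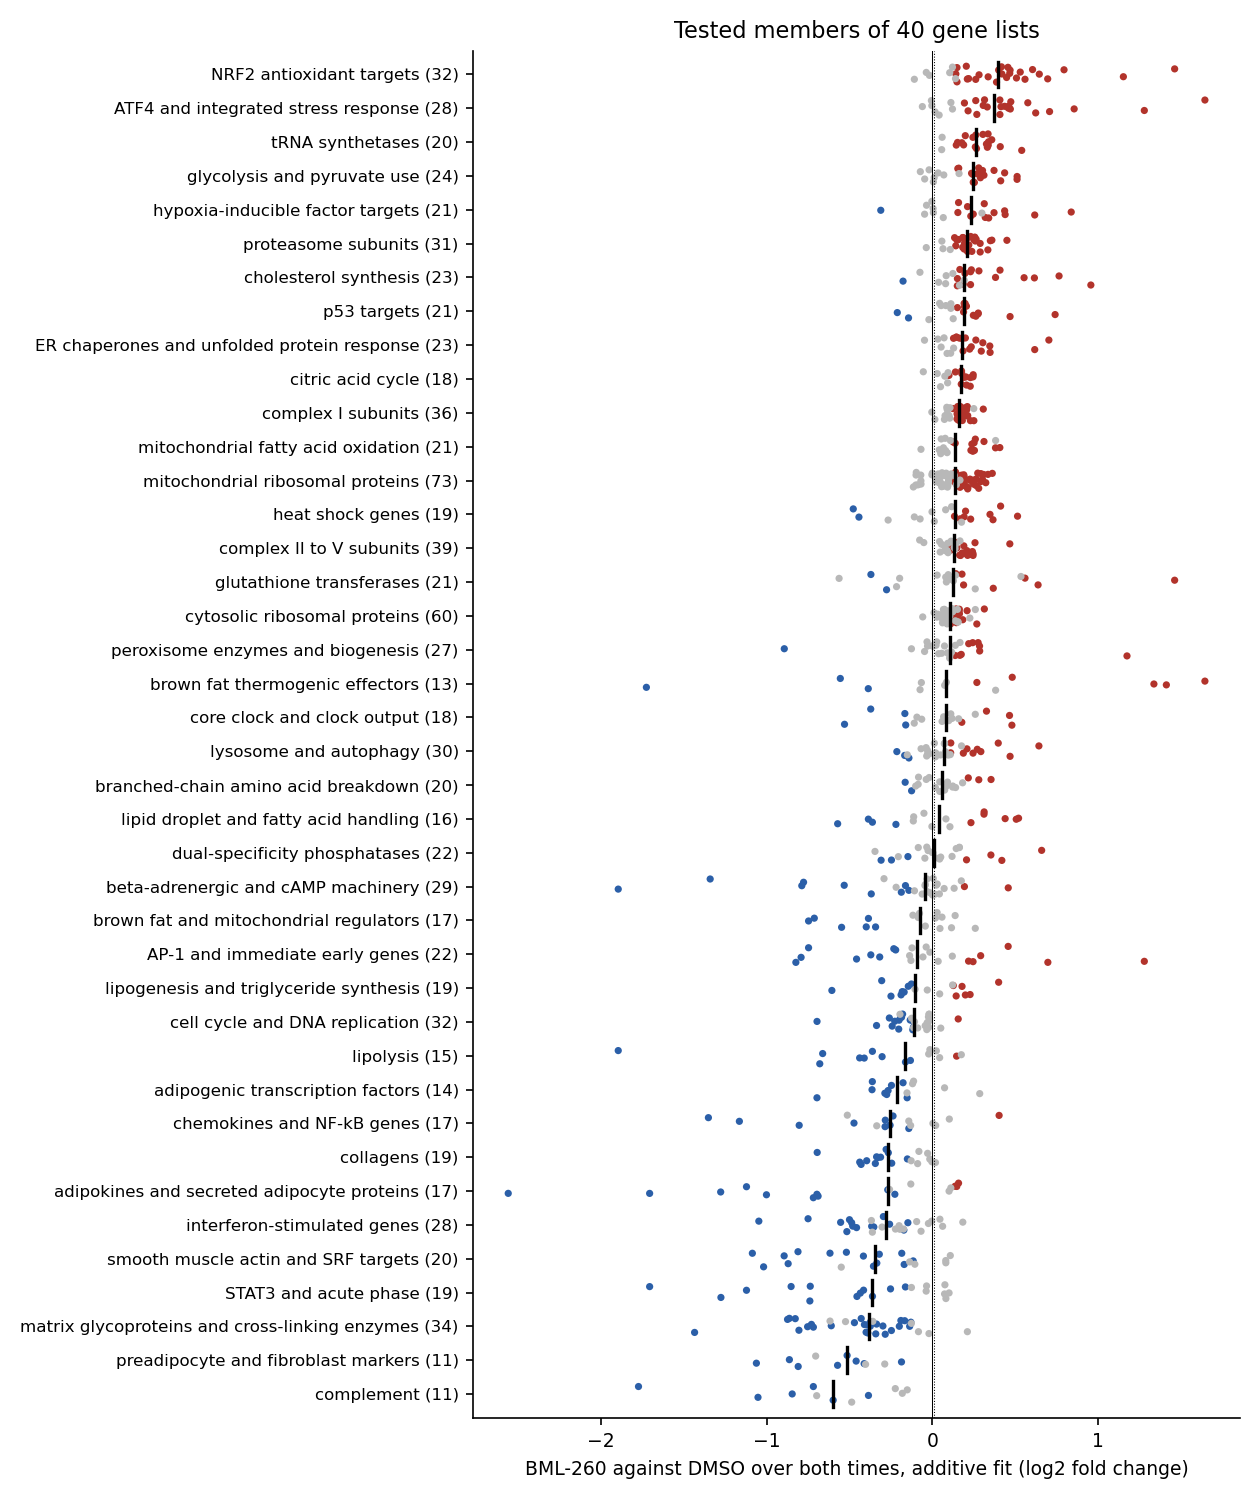
Log2 fold change of BML-260 against DMSO in the additive fit (horizontal) for each tested member of 40 gene lists (number tested in parentheses), with red and blue points for members that rose and fell, grey for those that did not pass, and black bars for list medians. NRF2, ATF4 and transfer RNA synthetase genes lie at the top with medians of 0.39, 0.37 and 0.27, and matrix, fibroblast and complement genes at the bottom with -0.38, -0.51 and -0.60, the dotted line being the median of all tested genes at 0.01.

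Of 32 cell cycle and replication genes 14 fell, 1 rose (0 with upper-quartile scaling) and 17 did not pass, with a median of -0.11 that was -0.19 at 1 day and -0.03 at 3 days. Tested alone, 19 of them changed at 1 day and 13 at 3 days. Among those that fell were Mki67, the marker of cycling cells, at -0.26 (SE 0.04) and the replication helicase subunit Mcm4 at -0.20 (SE 0.04). Of 21 targets of the hypoxia-inducible factor 13 rose and 1 fell (median 0.23). Ndrg1 among them stood at 111 and 107 CPM with DMSO and 152 and 146 CPM with BML-260 at 1 day, and at 195 and 189.8 CPM and 445 and 432 CPM at 3 days (log2 fold change 0.84, SE 0.10, edgeR adjusted p = 1.6e-05). BML-260 at 1 day lay below DMSO at 3 days, as Ndrg1 was higher at 3 days than at 1 day in both treatments. Of 21 p53 targets 12 rose and 2 fell (median 0.19), and 5 of the 21 passed when 1 day was tested alone against 14 at 3 days, with the growth arrest gene Gadd45a at 0.74 (SE 0.06).

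Among 30 lysosome and autophagy genes 10 rose and 3 fell, and with upper-quartile scaling 6 rose. The largest changes in this list by p were the autophagosome protein Gabarapl1 at 0.64 (SE 0.05), the lysosomal cholesterol exporter Npc1 at 0.40 (SE 0.04) and the autophagy receptor Sqstm1, also an NRF2 target, at 0.47 (SE 0.05). Of 22 immediate early genes 6 rose and 8 fell, with Egr1 at -0.46 (SE 0.06) and Egr2 at -0.82 (SE 0.09). Clock genes and branched-chain amino acid genes were mixed, with 4 of 18 higher and 4 lower and with 3 of 20 higher and 2 lower.

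The RNA of the phosphatase that the compound is sold to inhibit did not pass the test. Dusp22 stood at 75.9 and 75.8 CPM with DMSO and 78.9 and 80.4 CPM with BML-260 at 1 day, and at 68.9 and 72.5 CPM and 64.9 and 73.4 CPM at 3 days. The libraries overlapped at 3 days, and the log2 fold change was 0.02 (SE 0.05, edgeR adjusted p = 0.8). Dusp22 spans chromosome 13 from 30659999 to 30711231 on GRCm38 (GENCODE M21), and Ucp1 chromosome 8 from 83290352 to 83298452. Of 22 dual-specificity phosphatases 31.8% changed, near the 29.8% of all tested genes. Of the 22, 4 rose and 3 fell, with Dusp18 at 0.35 (SE 0.06) and Dusp1, a phosphatase of MAP kinases, at -0.31 (SE 0.06). Their median of 0.01 turned to -0.03 with upper-quartile scaling, the only list median in the figure of lists to change sign with scaling.

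Outside the lists, the larger rises named by rule were Extl1, a glycosyltransferase of the exostosin family, at 1.19 (SE 0.11), Kalrn, a guanine nucleotide exchange factor, at 0.98 (SE 0.08), Prdm15, a zinc finger protein, at 0.84 (SE 0.09), the scramblase Plscr2 at 0.83 (SE 0.09) and Cystm1 at 0.83 (SE 0.10). The larger falls were Apcdd1, a Wnt inhibitor, at -1.47 (SE 0.12), the protease Prtn3 at -1.47 (SE 0.15), the calcification inhibitor Mgp at -1.30 (SE 0.12), Adam11 at -1.27 (SE 0.08), Apol6 at -1.21 (SE 0.10) and the pro-apoptotic Bmf at -1.19 (SE 0.10). Exons of Mb and Apol6 overlap each other, those of Adrb3, Elovl3, Prtn3, Gas6, Dclk1 and Ndrg1 overlap exons of other annotated genes, so that reads of those neighbours may be among their counts. The same holds for further genes named in the text, among them Ddit3, Ppp1r15a, Hsp90b1, Fn1, Fbn1, Psmb9, Dusp1, Cebpa, Slc2a1 and Sqstm1.

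A few genes had nearly the same effect at both times. Those nearest to equality among genes changed by 0.5 or more on the log2 scale at each time were, upward, Cbr1 (0.52 at 1 day and 0.53 at 3 days), Wars, Gsta3, Psmg2 (0.52 and 0.50) and Ucp1. Downward they were the zinc finger protein Zfp647 (-0.51 and -0.51), the kinase Dclk1 (-0.67 and -0.68), the lectin Lgals9 (-0.67 and -0.69), the TAM receptor ligand Gas6 (-0.78 and -0.76) and the TGF-beta target Pmepa1 (-0.69 and -0.71). They were chosen for this likeness, which is a description. The difference between the effects at 3 days and 1 day passed edgeR's test for 1548 genes (10.2%) and for 754 of the 4506 genes changed in the additive model. In 671 of the 754 the effect was larger at 3 days, in 60 at 1 day, and in 23 the signs were opposite. The 1548 came to 804 without DMSO 1 day replicate 2, 845 and 915 without DMSO 3 days replicate 1 and 2, and 978 without BML-260 3 days replicate 1. A further 62 genes changed at each time in opposite directions, which a model of a common effect cannot show. Among these, named after their values were seen, Lcn2, lipocalin 2, was at -0.32 at 1 day and 0.45 at 3 days and Mgst2, a microsomal glutathione transferase, at 0.41 and -0.18.

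The number of genes that passed the test depended on the time term. Without it, with the 4 BML-260 libraries set against the 4 DMSO libraries in edgeR, 523 genes changed, 247 upward and 276 downward, and all 523 were among the 4506. Ucp1 then had an adjusted p of 0.091. The authors' deposited table for BML-260 against DMSO lists 616 genes as higher and 578 as lower with BML-260 once its sign, which runs from DMSO over BML-260, is turned. All of them changed in the same direction in the additive fit, and they make up 26.5% of its 4506 genes. Both rest on the same 8 libraries, so the equal direction is not independent evidence. A DESeq2 fit of treatment alone, with a prior on fold changes, gave log2 fold changes within 0.001 of those in the authors' deposited table for every gene in it. The authors' deposited table gives 1.07 for Cbr3, -1.43 for Mb and 1.13 for Gsta3, where the additive edgeR fit gave 1.15, -1.73 and 1.46. Ucp1, Cidea, Adipoq, Fabp4, Rasd1 and Ndrg1, each of which changed in the additive fit, are not listed in the authors' deposited table.

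**Figure D4:**
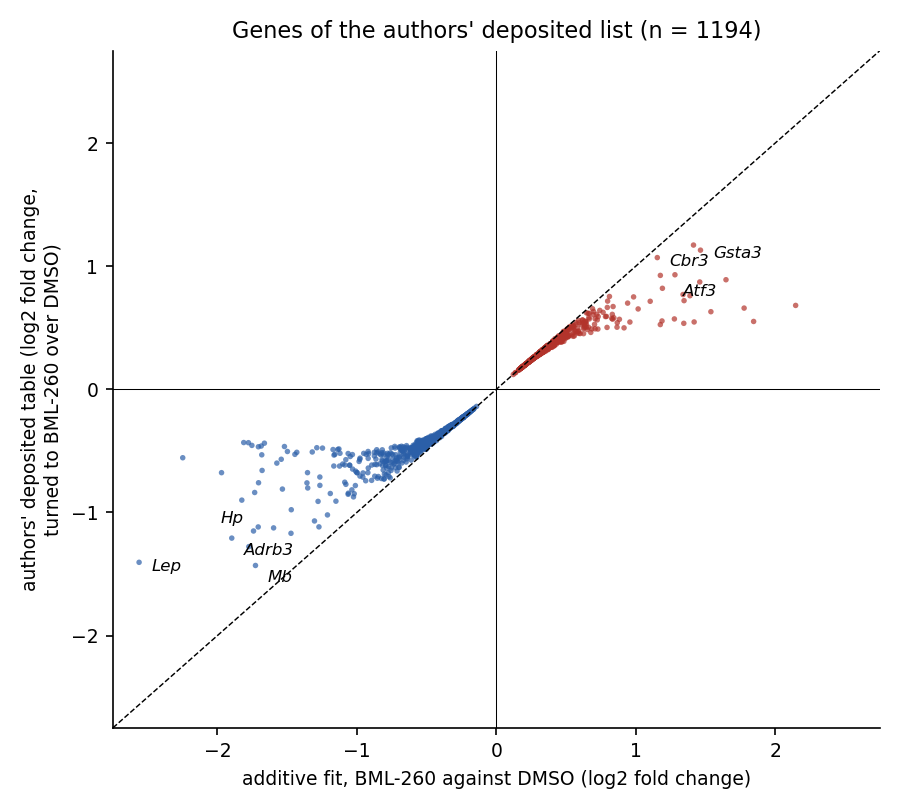
Log2 fold change in the authors' deposited table, turned to BML-260 over DMSO (vertical), against that of the additive fit (horizontal) for the 616 higher and 578 lower genes of that table, with the dashed line marking equality. All points lie in the quadrants of equal sign and nearer to 0 on the vertical axis than on the horizontal one, with the authors' values reaching at most 1.43 in size. Both axes rest on the same 8 libraries, which largely fixes the equal signs.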

How the data were processed

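RNA of brown adipocytes was sequenced in 10 libraries, and 8 enter the comparison. The table of all genes deposited by the authors holds raw counts per gene symbol. TopHat2 2.1.1, bcl2fastq 2.17.1.14, DESeq2 and bedtools are the programs in the submitters' processing notes, which also name mm10 and mm9 without a role. Strandedness, annotation and the rule for counting reads were not given in any source used here. The authors' deposited table for this comparison gives log2 fold changes, p-values and adjusted p-values, per the file headers, and its counts were checked against the full table and were equal. Of 24640 symbols 26 had been turned into dates by spreadsheet software.

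Libraries were grouped by title and treatment labels. Counts were analysed with edgeR 4.0.16 in R 4.3.3: filterByExpr by group (minimum count 10, minimum total 15), TMM normalization, and a quasi-likelihood test of treatment with time as a factor (5 residual degrees of freedom), with Benjamini-Hochberg adjustment over 15120 genes. A fit of 1 mean per group (4 residual degrees of freedom) gave effects at each time and their difference. SE is the size of the log2 effect over the root of its F statistic. For the additive fit it takes in the difference between the effects at 1 and 3 days as well as the spread within groups. CPM use TMM-scaled library sizes. At 17094354 to 20039083 counts per library the coefficient of variation between libraries, from edgeR's common dispersion in the additive fit, was 5.01%. The fit was tested on simulated data in which some genes of at least 10 CPM changed by 0.5 or 1 (log2). False calls made up 0.92% of calls in the additive fit, 6.22% at 1 day, 3.17% at 3 days and 5.76% for the difference between times. In the additive fit genes simulated to change at 3 days alone were not counted as false. Changes under 0.5, which 3682 of the 4506 genes had, were not simulated, so these shares do not describe them. The simulated counts took the spread within groups as estimated from these libraries. The shares therefore cannot tell whether that spread is technical only.

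The comparison, the 44 gene lists (1026 symbols, 950 tested, 555 changed) and the genes named were chosen with earlier results of these data known. The rule names the 12 higher and 12 lower genes of largest change with at least 10 CPM and no overlap between treatments at either time, passing over predicted loci, 5 and 5 with nearest effects at both times, up to 4 genes of smallest p per list, and always Dusp22, Ucp1, Cidea, Dio2, Ppargc1a, Fabp4 and Adipoq. Genes outside it are said to be named for their values, apart from Abcc4, which the search of promoters chose. Coordinates came from GENCODE M21, where 90.3% of tested genes matched by symbol, and promoters from RefSeq. Alternatives were other scalings and filters, DESeq2, replicate blocks, leaving out each library, all 10 libraries and a fit without time.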

Additional observations from a re-analysis of the deposited data

Results flagged for a closer look

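Of 119 tested genes named in the text, 50 had an effect of BML-260 that differed between 3 days and 1 day by edgeR's quasi-likelihood test at an adjusted p under 0.05. Nr1d1, Tagln2, Mrpl49 and Mrps7 were not among the 119. The share was 10.2% of all tested genes and 16.7% of those changed in the additive model. Most of the 119 were chosen for a large change or a small p, so these shares are not like for like. Values here are the log2 fold change at 3 days minus that at 1 day. For the 50 genes the common effect is an average of unequal effects.

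In 22 of them BML-260 raised the gene more at 3 days. They were Atf3 (0.89), Ndrg1 (0.73), Extl1 (0.69), Prdm15 (0.62), Sqle (0.57), Acox2 (0.53), Hspa5 (0.43), Lss (0.43), Slc2a1 (0.41), Cbr3 (0.37), Gpi1 (0.36), Gadd45a (0.34), Hmox1 (0.34), Relb (0.28), Hspb8 (0.27), Sqstm1 (0.27), Iars (0.26), Cycs (0.25), Gstp1 (0.22), Ddit3 (0.21), Asns (0.20) and Pdhb (0.19).

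In 23 of them BML-260 lowered the gene more at 3 days. They were Adrb3 (-1.23), C4b (-1.04), Rgs2 (-0.95), Ccl2 (-0.83), Apol6 (-0.73), Adipoq (-0.68), Rasd1 (-0.65), Nr4a1 (-0.63), Mb (-0.61), Hcar1 (-0.57), Cfd (-0.56), Hp (-0.56), Acta2 (-0.44), Cebpa (-0.41), Osmr (-0.41), Plin4 (-0.39), Mgll (-0.32), C3 (-0.29), Dusp1 (-0.29), Kcnk3 (-0.29), Egr1 (-0.28), Pparg (-0.28) and Ebf2 (-0.22).

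For Fabp4 (-0.37) the rise and for Fasn (0.27) the fall was larger at 1 day. For Ppargc1a (-0.26), Lcn2 (0.77) and Mgst2 (-0.59) the estimates at 1 and 3 days had opposite signs, and none of these 3 passed the additive test. Each group holds 2 libraries, so that outlying libraries within a group were not tested.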

How the results depend on the processing

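The 4506 genes of the additive model came to 3207 to 4352 when each library was left out in turn, the 2478 higher ones to 1759 to 2372 and the 2028 lower ones to 1444 to 1988, the 184 of at least 1 on the log2 scale to 142 to 234, and the 555 changed members of the gene lists to 449 to 552. The counts tested at single times came to 1430 to 2794 at 1 day, 4053 to 5643 at 3 days and 804 to 1355 for the difference between times, where the lowest counts at 1 day and for the difference came without DMSO 1 day replicate 2. Without the time term 523 genes changed (247 higher and 276 lower), 67 of them by at least 1, with 86 list members. With a minimum count of 50 in the filter, 67 genes changed by at least 1. DESeq2's Wald test gave 119 genes of at least 1, 1664 genes at 1 day, 3581 at 3 days and 693 for the difference. DESeq2 with treatment alone, added after the authors' deposited table had been seen, called 1193 genes with and without a prior on fold changes. The causes of these shifts were not tested. Under the other alternatives tried these counts stayed within 1.5 times, though upper-quartile scaling turned the balance of higher and lower genes. Of the counts per list and direction, over all alternatives with the fit without time included, 170 moved by more than 1.5 times and 1414 did not. The mean of the effects at each time, tested against the spread within groups alone, gave 5934 genes. The 181 tested genes named by rule gave 3130 values on the same side of the threshold, 124 that no longer passed, nearly all of them without the time term, and 1 that newly passed (Ppargc1a, in the mean of both effects), and 0 changed sign after being called.

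Libraries with the same replicate number did not deviate together, with correlations of 0.0272 between BML-260 and DMSO at 1 day and 0.0527 at 3 days, and nothing in the labels says that a number marks a shared culture. With the replicate number as a block within each time 3715 genes changed, and with a block across times 4241.

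On simulated data with these depths and 2 libraries per group, all of 100 genes changed by 0.5 (log2) were recovered by the additive fit. The test at 1 day recovered 96% of them and that at 3 days 100%. Of 100 others, changed by 0.5 at 3 days alone, the test of the difference between times recovered 80%. All had at least 10 CPM, and recovery of changes under 0.5 was not tested. The simulated spread was the one estimated within these groups.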
